A study of Mus musculus with 9 samples.

Results

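The comparison of B cells stimulated through the antigen receptor for 1 h with untreated B cells concerns the earliest part of the transcriptional response. It comprises 6 of the 9 arrays of the study: the 3 arrays labelled 1 h of anti-IgM and the 3 arrays labelled untreated, chosen by their deposited titles. Both groups were primary B cells purified from the spleen of C57BL/6 mice aged 8 weeks. The stimulated group had its receptor crosslinked with a goat F(ab')2 antibody to mouse IgM at 2.5 µg/ml for 1 h, and the remaining 3 arrays of the study are labelled 2 h of the same antibody. In the labels' protocol the cells are also said to have had IL-4 (5 ng/ml) and CD40L (200 ng/ml), with no word on which arrays, so either group may have received them. The series text gives 3 h for the antibody, and the 1 h and 2 h of the sample labels were followed. Biotin-labelled RNA was hybridized to Illumina bead arrays, which report the brightness of 45281 probes. Whether arrays of 1 group came from different mice or cultures is not stated, so p-values reflect the spread between samples only, and that spread may be technical.

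Crosslinking of the B cell receptor activates Syk and Src-family kinases, and through them the MAPK, calcium-calcineurin-NFAT and NF-κB pathways. Immediate-early genes are the first transcriptional targets of these pathways: their promoters are already open, they need no new protein, and many encode transcription factors or short-lived inhibitors that limit the signal. Resting lymphocytes in turn hold high levels of quiescence genes, such as Klf2 and Txnip, which are shut down when the cell is activated.

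Values are the deposited intensities, and differences and folds are on the scale of log2(intensity + 50), 1 h minus untreated, which understates the change of dim genes. A gene is represented by its probe with the highest mean. Of 14640 features kept, 11104 carry a gene name. The upper quartiles of the arrays differed by 0.347% at most. Of 10 written B cell markers, 6 were measured, with summed intensities of 3498 to 9874 at 1 h and 5463 to 12642 untreated, and Cd79a, Ighm and Cr2 were among those with no probe kept. The lowest B cell sum of each group was on replicate 2. There Cd79b had 2450 at 1 h, against 7250 and 6131 on replicates 1 and 3, and 3791 untreated, against 8660 and 9360. All 7 neutrophil markers were measured, with sums of 729 to 4185 at 1 h and 930 to 5311 untreated, as were 3 of 5 erythroid markers (74.2 to 2673 at 1 h and 76.1 to 2381 untreated). Both lists were highest on replicate 3 of each group, and their part in the results was not tested. In bulk RNA, fewer cells of a type and less RNA per cell cannot be told apart.

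The arrays labelled replicate 2 stood apart. This can be seen in 135 named genes that were at least 2-fold higher at 1 h on replicates 1 and 3, and in 33 that were at least 2-fold lower. On a scale where the untreated mean of replicates 1 and 3 is 0% and their 1 h mean is 100%, untreated replicate 2 had a median position of 101% over the 135 genes (quartiles 74.9% to 135%) and lay nearer the 1 h mean for 120 of them. The array labelled 1 h replicate 2 had a median of 67.6% (39.3% to 102%), and that labelled 2 h replicate 2 had 1.62%. Over the 33 lower genes the medians were 123% on untreated replicate 2, 111% on 1 h replicate 2 and 3.8% on 2 h replicate 2. On 2 h replicates 1 and 3 the medians were 99.1% and 103% over the higher genes, and 131% on both over the lower genes. The array labelled untreated replicate 2 therefore carried levels like those of the stimulated arrays, of 1 h or 2 h, for most of these genes. The array labelled 2 h replicate 2 carried those of untreated replicates 1 and 3. Deposited labels were kept throughout, and differences are over all 3 replicates unless replicates 1 and 3 or replicate 2 are named.

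**Figure D1:**
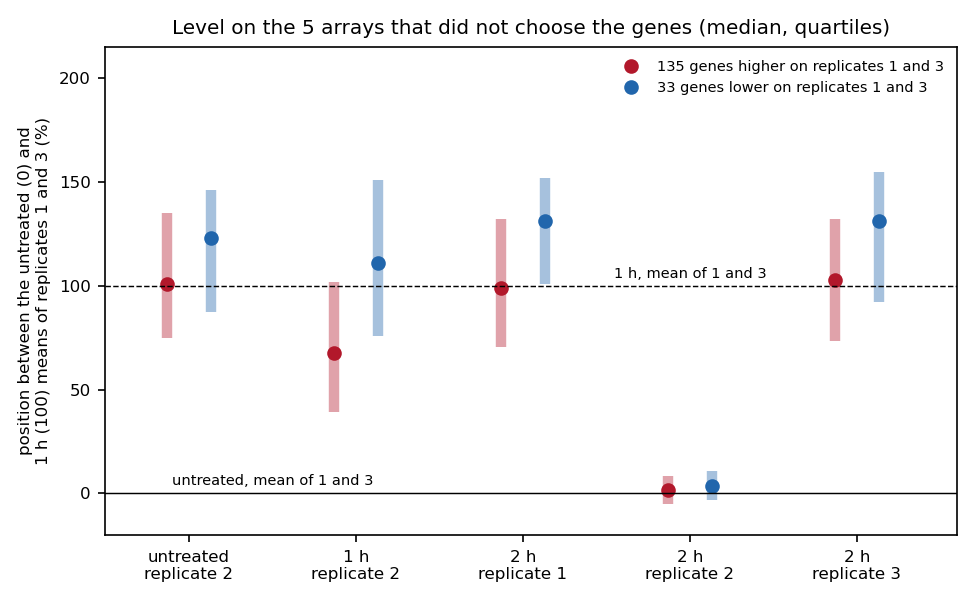
Position of the 5 arrays whose values did not enter the 2-fold choice of genes. The genes are 135 higher (red) and 33 lower (blue) by at least 2-fold on replicates 1 and 3. The y axis is the percent of the way between the untreated mean (0) and the 1 h mean (100) of replicates 1 and 3, points are medians over genes and bars span the quartiles. Untreated replicate 2 sits at 101% and 123%, and 2 h replicate 2 at 1.62% and 3.8%.

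With all 3 replicates, no gene passed. Of 14640 features, limma called 0 between 1 h and untreated at an adjusted p under 0.05 (0% higher and 0% lower), the smallest adjusted p was 1, and 190 features (1.3%) had an unadjusted p under 0.05. Of these 190, 102 were higher (0.697%) and 88 lower (0.601%). The lower and upper quartiles of all differences were -0.11 and 0.09. A mean difference of at least 1 was found for 57 features higher (0.389%) and 7 lower (0.0478%).

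Genes whose 3 arrays at 1 h all lay above, or all below, the 3 untreated arrays differed by small amounts. There were 387 such features higher at 1 h (2.64%) and 348 lower (2.38%), with median differences of 0.18 and -0.20. With 3 arrays per group, unchanged features can also separate in this way, so these counts do not measure a response. The genes below are a description of the widest gaps. All 3 arrays at 2 h lay on the untreated side of the 1 h arrays for 112 of the higher features (28.9%) and 92 of the lower ones (26.4%). Because the features were chosen for outlying 1 h arrays, the choice alone favours such an order. These shares and the 2 h values below are therefore no test of a return to untreated levels. Every gene named for this gap had adjusted p = 1 by limma.

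Cebpb, Impact and Ddit3, from a written list of amino acid response genes, had some of the widest of these gaps. A written list of unfolded protein response genes did not include Ddit3. Of its 18 measured members, 0 were without overlap, against 2.64% of all features higher and 2.38% lower. With 18 members, a count of 0 is near these shares. The medians of that list were 0.15 over all replicates, -0.03 on replicates 1 and 3, and 0.31 on replicate 2. Cebpb, which encodes a bZIP transcription factor induced by stress and inflammatory signals, had intensities of 142, 219 and 129 at 1 h, against 73.6, 79.9 and 79.6 in untreated cells. All 3 arrays at 1 h were brighter than any untreated array, by 0.72 ± 0.15 on average (SE, n = 3 arrays each, unadjusted p = 0.00116 by limma). At 2 h, Cebpb gave 88.7, 87.6 and 85.6, close to untreated. Impact, an inhibitor of GCN2, the kinase that senses amino acid shortage, had 872, 521 and 878 at 1 h, against 343, 394 and 309 in untreated cells. Its difference was 0.99 ± 0.20, and its intensities at 2 h, of 310, 397 and 303, were again below every array at 1 h. Ddit3, which encodes the stress transcription factor CHOP, had 545, 788 and 698 at 1 h, against 226, 435 and 343 in untreated cells. Its difference was 0.94 ± 0.27, and it was higher at 1 h on each replicate number.

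Sterol genes formed another set. Msmo1, a sterol C4-demethylating enzyme of cholesterol synthesis, was 0.69 ± 0.14 higher at 1 h, with all 3 replicates between 1184 and 1454, against 728 to 872 in untreated cells. Stard4, a carrier of cholesterol between membranes, had 1104, 1496 and 1471 at 1 h, against 791, 971 and 796 in untreated cells, with 863, 773 and 829 at 2 h. Insig1, which retains the sterol sensor of the SREBP pathway in the endoplasmic reticulum, had 461, 612 and 341 at 1 h, against 320, 293 and 266 in untreated cells (0.57 ± 0.18), and 1 of its 3 probes had the opposite sign. In all 3 genes the groups did not overlap, and all 3 arrays at 2 h of Stard4 lay below its lowest array at 1 h.

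The other 8 named genes with wide gaps upward had differences of 0.24 to 0.68. Siah2, a ubiquitin ligase, had 85.6, 81.8 and 92.1 at 1 h, against 31.5, 62.7 and 17.4 in untreated cells. Nabp1, a single-stranded DNA binding protein, had 188, 153 and 153 at 1 h, against 116, 114 and 117 in untreated cells, a difference of 0.37 ± 0.11 over 3 untreated arrays that were nearly equal. Pip5k1b, a kinase that makes the phosphoinositide PIP2, had 179, 353 and 199 at 1 h, against 147, 115 and 132 in untreated cells, so replicate 2 carried most of its difference of 0.65 ± 0.21. Fgd6, an exchange factor for Cdc42, and the cytoskeletal septin gene Septin7 were 0.40 ± 0.12 and 0.68 ± 0.19 higher, and 1 of 3 probes of Septin7 had the opposite sign. Spag7, Wdyhv1 (an N-terminal glutamine amidase) and Styxl1 (a pseudophosphatase) differed by 0.29, 0.24 and 0.29, and Styxl1 was not above noise on any untreated array, at 0.531, 1.98 and 1.02.

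Among the 12 named genes lower on all 3 arrays at 1 h, Sema4b and Kcnk13 had the widest gaps. Sema4b, a semaphorin, had 758, 835 and 878 at 1 h, against 1678, 1227 and 1779 in untreated cells (-0.87 ± 0.24, unadjusted p = 0.00689 by limma). The potassium channel gene Kcnk13 had 118, 94.2 and 115 at 1 h, against 221, 179 and 241 in untreated cells (-0.72 ± 0.14, unadjusted p = 0.000748), and 219, 249 and 178 at 2 h. For both genes the 1 h arrays lay close together below every untreated array. Tgfbr1, the type I receptor for TGF-β, was at 283 to 395 at 1 h, against 470 to 520 in untreated cells (-0.49 ± 0.12). Plcl2, a phospholipase C-like protein that binds inositol phosphates in B cells, was at 213 to 248 at 1 h, against 291 to 337 in untreated cells (-0.40 ± 0.15). The orphan receptor gene Gpr146 had a difference of -0.58 ± 0.14.

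The remaining named genes of this kind were of mixed function. Upf2, a core factor of nonsense-mediated decay, had 705, 830 and 720 at 1 h, against 1096, 1226 and 998 in untreated cells (-0.53 ± 0.15). Kdm5b, a demethylase of histone H3 lysine 4, had 53.7, 58.8 and 61.3 at 1 h, against 83.0, 120 and 81.5 in untreated cells (-0.41 ± 0.12). The zinc finger genes Zfp710 and Zfand3 differed by -0.53 ± 0.13 and -0.56 ± 0.17. Il12a, the p35 subunit shared by interleukins 12 and 35, was at 44.7 to 51.5 at 1 h, against 71.7 to 94.0 in untreated cells. Stx12, a SNARE of the endosome, and Pole2, a subunit of DNA polymerase epsilon, differed by -0.43 ± 0.12 and -0.40 ± 0.20.

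**Figure D2:**
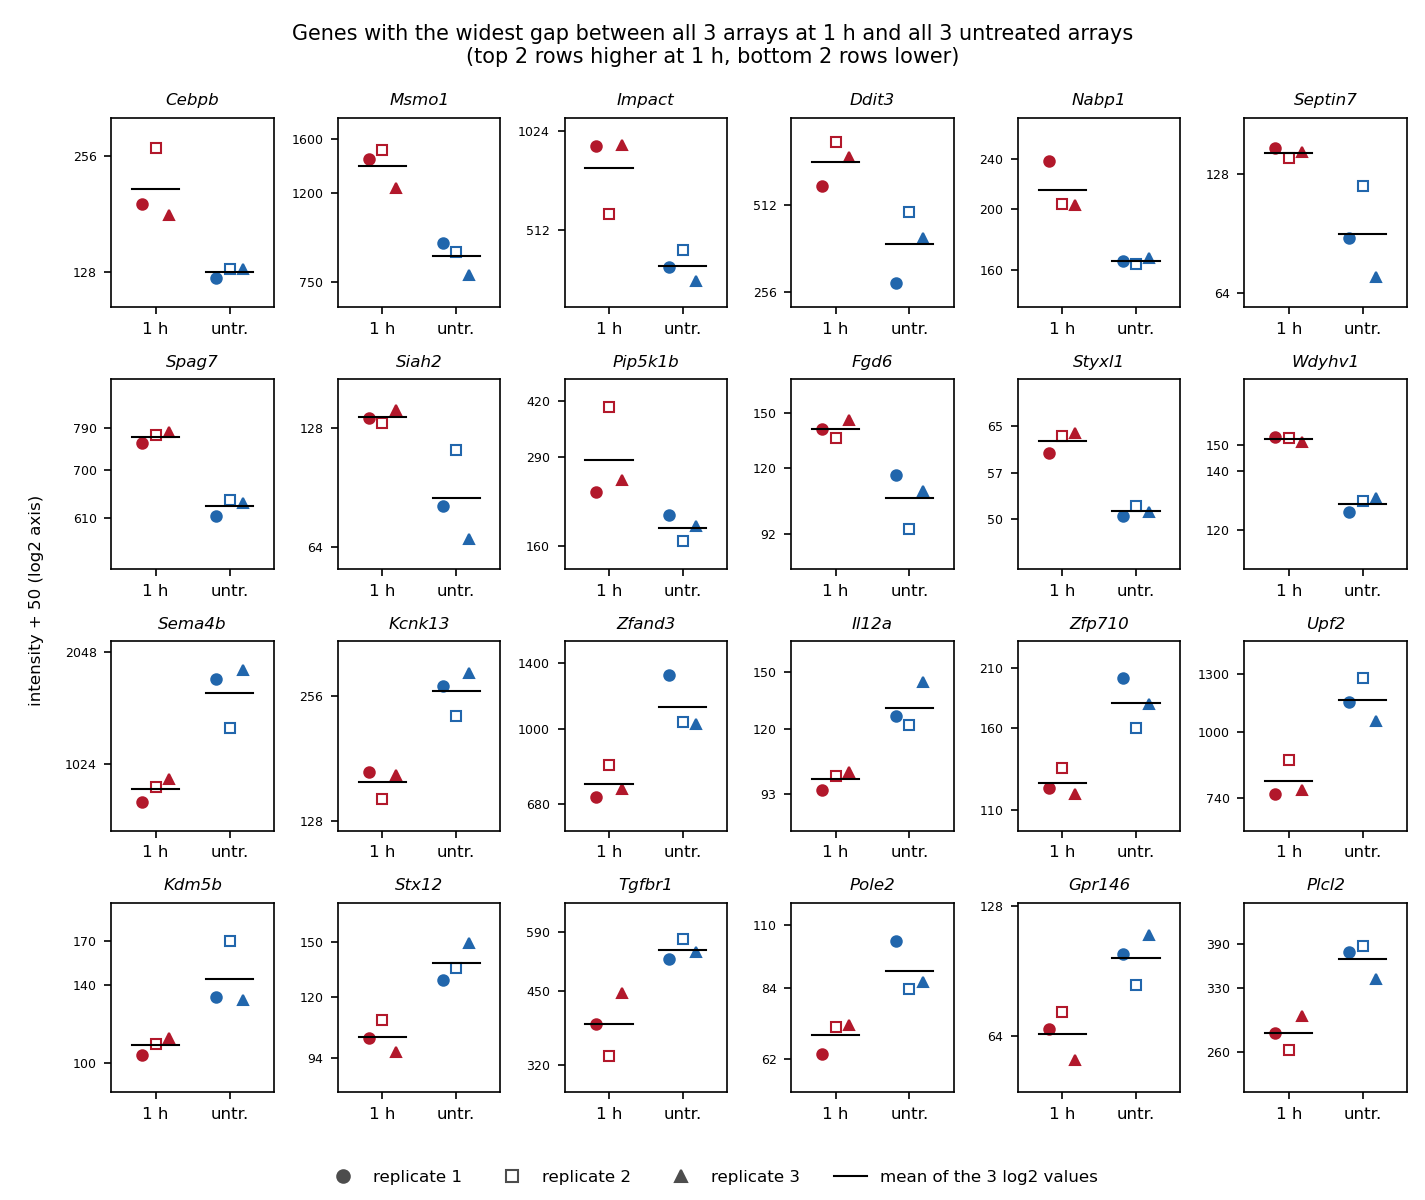
Intensity plus 50 (log2 axis) of the 12 genes higher and the 12 genes lower with the widest gap between all 1 h and all untreated arrays. Each panel has its own axis, with 1 h (red) left of untreated (blue), symbols are replicates, and bars are means of the 3 log2 values. The groups do not overlap in any panel because the genes were chosen for that, and the differences are of -0.87 to 0.99.

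On replicates 1 and 3 alone the differences were larger. There were 577 features higher (3.94%) and 496 lower (3.39%) at an adjusted p under 0.05 by limma, with the 2 h arrays of those replicates in the fit. Since the replicates were chosen with the arrays' values known, these p-values come out too small to be a test, and the genes are described here by their levels. At least 2-fold differences were found for 178 features higher (1.22%) and 35 lower (0.239%), of which 135 and 33 are named. The members nearest the threshold were Rybp just inside and Phlda1 (0.997) just outside among higher genes, and Sla just inside and Gna15 (-0.985) just outside among lower ones. Only 4 of the 135 (Ddit3, Dnajb2, Impact and Srgn) and 4 of the 33 (Kctd14, Nuak2, Pptc7 and Sema4b) also had no overlap over all 3 replicates.

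Immediate-early transcription factors, of which 16 of 23 measured were at least 2-fold higher on these replicates, had more such members than any other of the 25 gene lists. Egr4, a zinc finger factor of the Egr family, had 1230, 183 and 1224 at 1 h, against 5.25, 360 and -2.92 in untreated cells. It was not above noise on untreated replicates 1 and 3, where 1 h was at least 22.6-fold higher, while on replicate 2 the order was turned. Over all 3 replicates the difference was 2.83 ± 1.11 (unadjusted p = 0.0335 by limma), and it ranged from 2.27 to 3.83 without 1 array. Egr2 had 8191, 5399 and 9961 at 1 h, against 1097, 7572 and 1023 in untreated cells, and Egr3 had 10325, 3032 and 13660 against 1376, 9555 and 1005. In both, untreated replicate 2 was above 1 h replicate 2.

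The AP-1 genes followed the same arrays. Junb had 1698, 482 and 1993 at 1 h, against 110, 1062 and 164 in untreated cells, which is 10.2-fold on replicates 1 and 3. Fosl2 had 301, 301 and 460 at 1 h, against 2.16, 340 and 0.692 in untreated cells, at least 7.49-fold on replicates 1 and 3, with 1 of its 3 probes of the opposite sign. Atf3, a stress-induced bZIP factor, had 325, 106 and 322 at 1 h, against -0.0628, 140 and 5.95 in untreated cells. Jun itself lay the other way, with 46.6, 16.8 and 41.9 at 1 h, against 93.6, 31.8 and 124 in untreated cells. It was lower on each replicate number, with a difference of -0.60 ± 0.30 and overlap between the groups. Its relative Jund differed by 0.30 on replicates 1 and 3 and by -0.66 on replicate 2, which gave -0.02 over all 3. Crem, whose short isoform ICER represses cAMP-responsive genes, had 820, 67.1 and 801 at 1 h, against 93.6, 363 and 70.3 in untreated cells, with 2 of 5 probes of the opposite sign. The orphan receptor gene Nr4a2 had 125, 156 and 202 at 1 h, against 4.81, 400 and 7.80 in untreated cells. Nr4a1 had no probe kept. Egr1 had 10635, 4017 and 12904 at 1 h, against 1054, 8548 and 876 in untreated cells, and Myc, which drives growth, had 840, 583 and 816 against 57.0, 798 and 70.0. In both, untreated replicate 2 was again above 1 h replicate 2.

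Of 15 measured cytokine and chemokine genes, 9 were higher and 6 lower on replicates 1 and 3, with a median of 0.02. At least 2-fold higher were 5 of the 15, against 1.22% of all features. The chemokine gene Ccl3 had 2344, 6498 and 2403 at 1 h, against 95.5, 2818 and 193 in untreated cells, and unlike the transcription factors it was 1.19 higher on replicate 2 as well. Its neighbour Ccl4 was higher by 4.87 on replicates 1 and 3 and by 0.72 on replicate 2. Tnf had 226, 222 and 310 at 1 h, against 17.7, 485 and 15.3 in untreated cells, and the anti-inflammatory cytokine gene Il10 had 144, 107 and 172 against 9.80, 169 and 8.82. Among brakes on signalling, Dusp2, a nuclear phosphatase of ERK, had 4243, 3459 and 6036 at 1 h, against 436, 5107 and 459 in untreated cells. Dusp5, another nuclear ERK phosphatase, had 520, 28.6 and 469 against 29.7, 210 and 26.5. Rgs1, which turns off chemokine receptor signalling through G proteins, had 986, 744 and 629 against 57.0, 743 and 40.2. For these brakes, untreated replicate 2 was level with or above 1 h replicate 2, as it was for Errfi1, an inhibitor of EGF-family receptors (345, 89.0 and 351 at 1 h, against 24.5, 180 and 12.8 untreated).

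Other genes of this group act in different processes. Hilpda, a lipid droplet protein known from hypoxia, had 1549, 550 and 1342 at 1 h, against 102, 1395 and 111 in untreated cells. The H3K27 demethylase gene Kdm6b had 346, 286 and 511 at 1 h, against 39.4, 563 and 36.3 in untreated cells. Nfkbid, a nuclear IκB protein needed for B cell activation in mice, had 3187, 1129 and 3535 at 1 h, against 474, 1787 and 473 in untreated cells. Its NF-κB partner gene Rel had 569, 340 and 581 at 1 h, against 110, 537 and 82.9 in untreated cells. Bcl2l11, the pro-apoptotic BH3 gene also called Bim, had 888, 1003 and 1053 at 1 h, against 307, 1029 and 291 in untreated cells. In each of these 5 genes untreated replicate 2 lay far above untreated replicates 1 and 3.

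**Figure D3:**
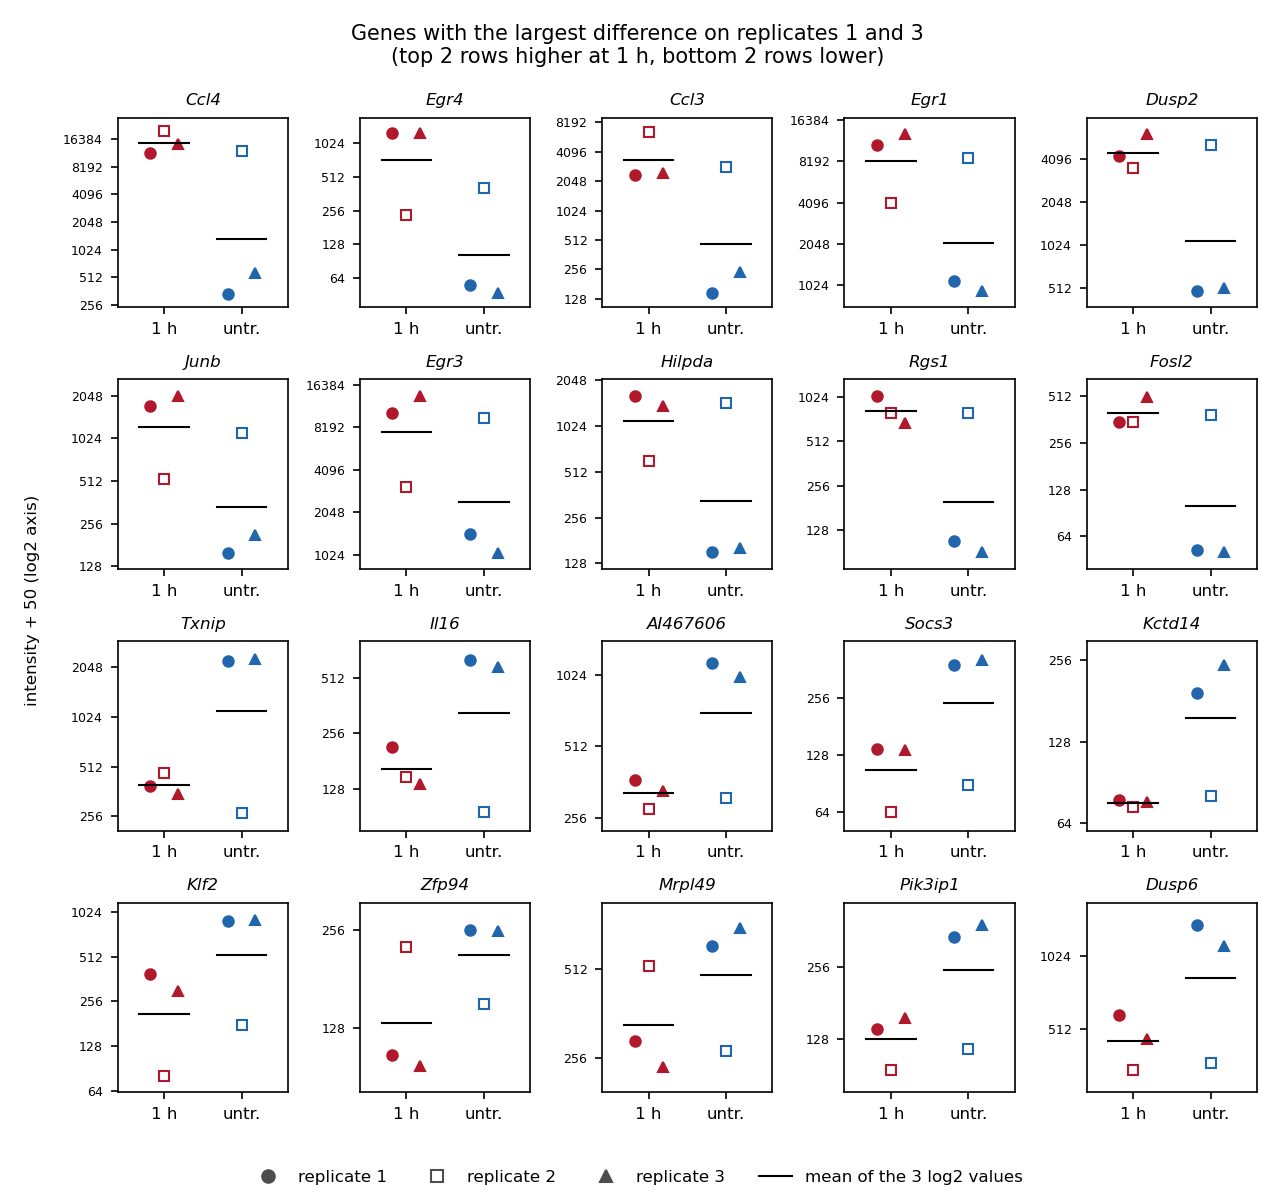
Intensity plus 50 (log2 axis) of the 10 genes with the largest difference upward and the 10 with the largest downward on replicates 1 and 3, with 1 h (red) left of untreated (blue). Each panel has its own axis, symbols are replicates (replicate 2 open), and bars are means of all 3 log2 values. Untreated replicate 2 lies apart from untreated replicates 1 and 3 in every panel.

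Genes lower on replicates 1 and 3 included inhibitors of growth and of cytokine signalling. Txnip, an inhibitor of thioredoxin and glucose uptake, had 339, 416 and 298 at 1 h, against 2180, 218 and 2255 in untreated cells, and was higher at 1 h by 0.80 on replicate 2. Pik3ip1, an inhibitor of PI3 kinase, had 91.8, 45.2 and 106 at 1 h, against 290, 67.2 and 332 in untreated cells. Socs3, an inhibitor of JAK-STAT signalling, had 87.9, 14.3 and 85.9 at 1 h, against 330, 38.9 and 353 in untreated cells. Both were lower on each replicate number, but untreated replicate 2 overlapped the 1 h values. Dusp6, the cytoplasmic ERK phosphatase, had 534, 294 and 414 at 1 h, against 1327, 320 and 1075 in untreated cells, opposite in direction to its nuclear relatives Dusp2 and Dusp5.

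The remaining 6 of the 10 largest were of mixed function. Il16, a precursor of a T cell attractant, had 165, 98.4 and 86.1 at 1 h, against 596, 45.4 and 541 in untreated cells. Kctd14 had 28.0, 23.5 and 26.9 at 1 h, against 145, 31.1 and 197 in untreated cells, and was the one gene of these 10 without overlap over all 3 replicates (-1.05 ± 0.44). Klf2 differed by -1.40 on replicates 1 and 3 and by -1.14 on replicate 2. The others on replicates 1 and 3 were AI467606 (-1.62), the zinc finger gene Zfp94 (-1.32) and the mitochondrial ribosome gene Mrpl49 (-1.32), whose 4 probes included 1 of the opposite sign. On replicate 2 these 3 differed by -0.16, 0.58 and 0.96. Of all features, 1.22% were at least 2-fold higher on replicates 1 and 3 and 0.239% at least 2-fold lower, beside which the next 2 lists are given. Of 11 measured BCL2 family genes, 2 were at least 2-fold higher on replicates 1 and 3. In that list 1 was at least 2-fold lower, Bbc3, the BH3 gene PUMA (-1.21, against 0.37 on replicate 2). Of 18 genes for G1 cyclins, CDKs and their inhibitors, 1 was at least 2-fold higher, Cdkn1a, which encodes p21 (1.65, and -0.47 on replicate 2), and 1 at least 2-fold lower, the CDK4/6 inhibitor gene Cdkn2d (-1.12, and 0.10 on replicate 2). The initiator caspase gene Casp9 and the cyclin gene Ccng2 differed by -1.05 and -1.09 on replicates 1 and 3, and by -0.07 and -0.18 on replicate 2.

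The replicate 2 arrays gave another direction for the higher set. Their values did not enter the 2-fold choice, but replicate 2 was left out with its values known. They also entered the filter on dim probes and the choice of probe, so the counts below are a description and no independent test. Of the 135 genes, 13 (9.63%) were higher on 1 h replicate 2 than on untreated replicate 2, against 49.7% of all features, and their median difference was -0.49, against -0.00 for all features. Of the 33 lower genes, 17 were lower on 1 h replicate 2 than on untreated replicate 2, with a median of -0.01. On replicate 2 alone, 119 features were higher by at least 1 (0.813%) and 193 lower (1.32%).

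**Figure D4:**
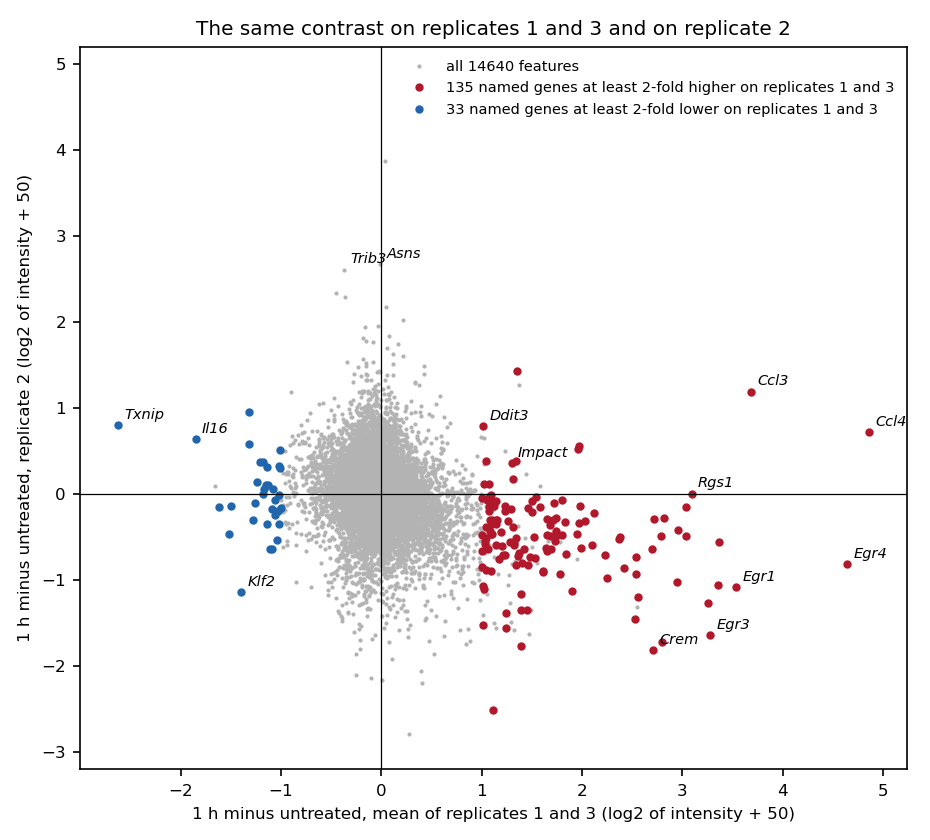
Difference of 1 h minus untreated on the log2(intensity + 50) scale for all 14640 features, the mean of replicates 1 and 3 on the x axis and replicate 2 on the y axis, which share no array. Red points are the 135 named genes at least 2-fold higher and blue points the 33 at least 2-fold lower on replicates 1 and 3. The red points lie mostly below 0 on the y axis (122 of 135), and Asns and Trib3 lie high on the y axis and near 0 on the x axis.

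For 15 of the 135 genes, untreated replicate 2 lay at or below the midpoint between the untreated and 1 h means of replicates 1 and 3. In some it was still above both other untreated arrays, as in Fos, with 97.3 against 15.1 and 14.7. In others, such as Plk2, the 3 untreated arrays were near level. The 15 genes were chosen for their values and are given as a description. Fosb, an AP-1 gene, had 401, 0.421 and 398 at 1 h, against 13.9, 52.2 and 3.20 in untreated cells, and 44.0, 3.57 and 51.1 at 2 h. Only 1 h replicates 1 and 3 had a high level, and 1 h replicate 2 was not above noise. Irs2, an adaptor of the insulin and IL-4 receptors, had 1961, 348 and 2572 at 1 h, against 688, 711 and 550 in untreated cells, and 556, 733 and 422 at 2 h.

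The polo-like kinase gene Plk2 had 248, 9.74 and 202 at 1 h, against 51.0, 49.5 and 45.4 in untreated cells. Zfp36, which encodes the mRNA-destabilizing protein tristetraprolin, had 3069, 1136 and 3371 at 1 h, against 942, 1397 and 1036 in untreated cells, with a difference of 1.01 ± 0.39 (unadjusted p = 0.0311 by limma). For Irs2, Plk2 and Zfp36, 1 h replicates 1 and 3 stood above all other arrays of the study. The others of the 15 included Fos, Dusp1, Sertad1 (a regulator of CDK4 and E2F), Rabgef1 (a Rab5 exchange factor) and Bhlhe40 (a clock-related repressor). Rabgef1 had 1838, 1048 and 2450 at 1 h, against 702, 1178 and 775 in untreated cells, and 868, 688 and 796 at 2 h. Selenok differed in its time course, at 544, 208 and 574 at 1 h, against 228, 246 and 252 in untreated cells, with 524, 294 and 702 at 2 h.

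The 6 promoters printed here belong to genes whose level was at least 2-fold higher on replicates 1 and 3, shown because they hold a binding sequence of a factor downstream of the receptor. They are RefSeq sequences on GRCm38.p6, each the 160 bases before the first start the table lists for the gene, written 5′ to 3′ on the gene's strand and numbered from -160 to -1. For Srf this start lies inside the gene's span. Capitals mark CArG boxes, the binding sequence of serum response factor, in Dusp5 (chr19:53528985-53529144, plus strand, boxes beginning at -82 and -72), in Srf (chr17:46556163-46556322, minus strand, at -82 and -62) and in Zfp36 (chr7:28379229-28379388, minus strand, at -58).
Dusp5: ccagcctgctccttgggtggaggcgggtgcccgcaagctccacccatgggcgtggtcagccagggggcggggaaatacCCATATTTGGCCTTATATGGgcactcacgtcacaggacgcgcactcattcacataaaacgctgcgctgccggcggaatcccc
Srf: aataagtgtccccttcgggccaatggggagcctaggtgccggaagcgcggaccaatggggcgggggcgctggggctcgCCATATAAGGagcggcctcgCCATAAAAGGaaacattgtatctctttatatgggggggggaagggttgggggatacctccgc
Zfp36: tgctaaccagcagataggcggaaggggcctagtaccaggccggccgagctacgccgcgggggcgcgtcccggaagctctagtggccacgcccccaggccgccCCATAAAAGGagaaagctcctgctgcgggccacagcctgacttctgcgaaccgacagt
Capitals mark the cAMP response element TGACGTCA, bound by CREB, in Dusp1 (chr17:26508473-26508632, minus strand, at -143) and Plk2 (chr13:110394884-110395043, plus strand, at -62).
Dusp1: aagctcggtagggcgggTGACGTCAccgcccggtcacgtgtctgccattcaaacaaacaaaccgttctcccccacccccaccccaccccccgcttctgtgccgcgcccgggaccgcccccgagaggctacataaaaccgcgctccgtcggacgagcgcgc
Plk2: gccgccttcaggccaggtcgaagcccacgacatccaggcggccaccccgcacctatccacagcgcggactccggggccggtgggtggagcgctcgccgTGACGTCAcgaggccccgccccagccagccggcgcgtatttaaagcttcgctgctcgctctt
In Rel (chr11:23770970-23771129, minus strand, at -91) capitals mark an NF-κB sequence, GGG and TTTCC with any 2 bases between, which reads here on the opposite strand.
Rel: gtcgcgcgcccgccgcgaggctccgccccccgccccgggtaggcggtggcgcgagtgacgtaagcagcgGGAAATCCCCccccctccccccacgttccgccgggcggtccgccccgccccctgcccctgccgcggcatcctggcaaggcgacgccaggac

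These genes had the following levels. Srf, which encodes serum response factor itself, had 1150, 634 and 1826 at 1 h, against 465, 1231 and 419 in untreated cells. Dusp1, a nuclear phosphatase of JNK and p38, had 240, 93.3 and 200 at 1 h, against 83.3, 130 and 64.6 in untreated cells. In both, untreated replicate 2 was above 1 h replicate 2. Promoters of 250 bases before to 50 after the first listed start were found for 108 of the 135 genes, 26 of the 33 and 9008 of all named genes, and each motif was searched on both strands. A CArG box was found in 4 of 108 promoters (3.7%), against 1.47% of all named genes, and the 4 were those of Dusp5, Gpr183, Srf and Zfp36. The NF-κB sequence was found in 6 (5.56%), against 1.57%, and in Dusp5 it overlaps the first CArG box. TGACGTCA was in 4.63%, against 3.29%, the AP-1 sequence TGANTCA in 9.26%, against 5.21%, and the Egr sequence GCGNGGGCG in 16.7%, against 9.97%. TATAAA was in 12%, against 8.83%, and TGATGNAA, the composite sequence bound by CHOP and ATF4, in 7.41%, against 2.56%. In the 26 promoters of lower genes, the Egr sequence was in 15.4%, close to its share in the higher set. TGACGTCA, TGANTCA and the NF-κB sequence were in 3.85% each. The CArG box, TATAAA and TGATGNAA had 0 matches there, and 26 promoters are few for motifs this rare. Median GC content was 63% in the 135-gene set, 63.2% in the 33-gene set and 60% in all named genes. Gene spans in RefSeq had a median of 14.9 kb in the higher set and 15.9 kb in the lower set, against 21.3 kb for all named genes, and 19.3%, 33.3% and 14.9% of genes were under 5 kb. A match is a description of these letters, and binding was not measured.

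Gene lists drawn from known pathways were set beside all features, of which 48.6% were higher over all 3 replicates and 46% on replicates 1 and 3. None of their members was called over all 3 replicates. Of 27 immediate-early transcription factors, 23 were measured and 21 were higher, with a median difference of 0.89 over all 3 replicates, 1.90 on replicates 1 and 3, and -0.53 on replicate 2. The 16 at least 2-fold higher on replicates 1 and 3 compare with 1.22% of all features, and 0 of the 23 were free of overlap over all 3 replicates. Among 13 measured MAPK phosphatases and Sprouty-type inhibitors, 9 were higher, with medians of 0.25 over all replicates, 0.47 on replicates 1 and 3, and -0.37 on replicate 2. Among 21 NF-κB feedback and target genes, 14 were higher, with medians of 0.12, 0.34 and -0.38 in the same order. Of the 21 NF-κB members, 1 was without overlap, against 2.64% of all features higher and 2.38% lower. It was Bcl3, an IκB-like coactivator, at 40.5, 20.3 and 29.1 at 1 h, against 81.9, 41.3 and 75.1 in untreated cells. Its groups were apart only by the margin between 40.5 and 41.3.

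The amino acid response list had the opposite pattern over the replicates. Of 25 measured ATF4 amino acid response genes, 22 were higher over all replicates, 9 on replicates 1 and 3, and 21 on replicate 2. Their medians were 0.43 over all replicates, -0.03 on replicates 1 and 3, and 0.80 on replicate 2. The asparagine synthetase gene Asns had 102, 1359 and 90.2 at 1 h, against 96.8, 171 and 97.2 in untreated cells. The pseudokinase gene Trib3, an inhibitor of AKT, had 23.0, 571 and 23.1 at 1 h, against 48.2, 51.6 and 41.0 in untreated cells. The mitochondrial folate enzyme gene Mthfd2 had 535, 3377 and 374 at 1 h, against 544, 838 and 472 in untreated cells. These 3 genes were high on 1 h replicate 2 alone, and without that array their differences were -0.20, -0.41 and -0.39, against 0.89, 0.62 and 0.54 with it. Cebpb, Ddit3 and Impact were the 3 members without overlap, which is 3 of 25 against 2.64% of all features, and Ddit4, an inhibitor of mTORC1, had the lowest difference of the list (-0.60 ± 0.35).

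Of 20 measured cholesterol synthesis genes and LXR targets, 15 were higher over all replicates, 11 on replicates 1 and 3, and 18 on replicate 2. Their difference had medians of 0.23 over all replicates, 0.14 on replicates 1 and 3, and 0.47 on replicate 2. Over all replicates 3 of 20 were higher without overlap, against 2.64% of all features. Hsd17b7, a sterol 3-ketoreductase, had 512, 1200 and 610 at 1 h, against 368, 519 and 345 in untreated cells (0.77 ± 0.29). The lanosterol demethylase gene Cyp51 had 972, 1936 and 992 at 1 h, against 614, 1070 and 568 in untreated cells (0.73 ± 0.41). Both were higher on each replicate number, and untreated replicate 2 overlapped the 1 h values. The LXR targets Abcg1, a sterol exporter, and Mylip, a ligase that degrades the LDL receptor, differed by -0.59 ± 0.44 and -0.38 ± 0.22. Mylip was dim, at 9.07, 8.01 and 1.76 at 1 h, against 32.4, 9.08 and 31.0 in untreated cells. Its groups were free of overlap only by the margin between 9.07 and 9.08, and replicate 2 differed by -0.03.

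**Figure D5:**
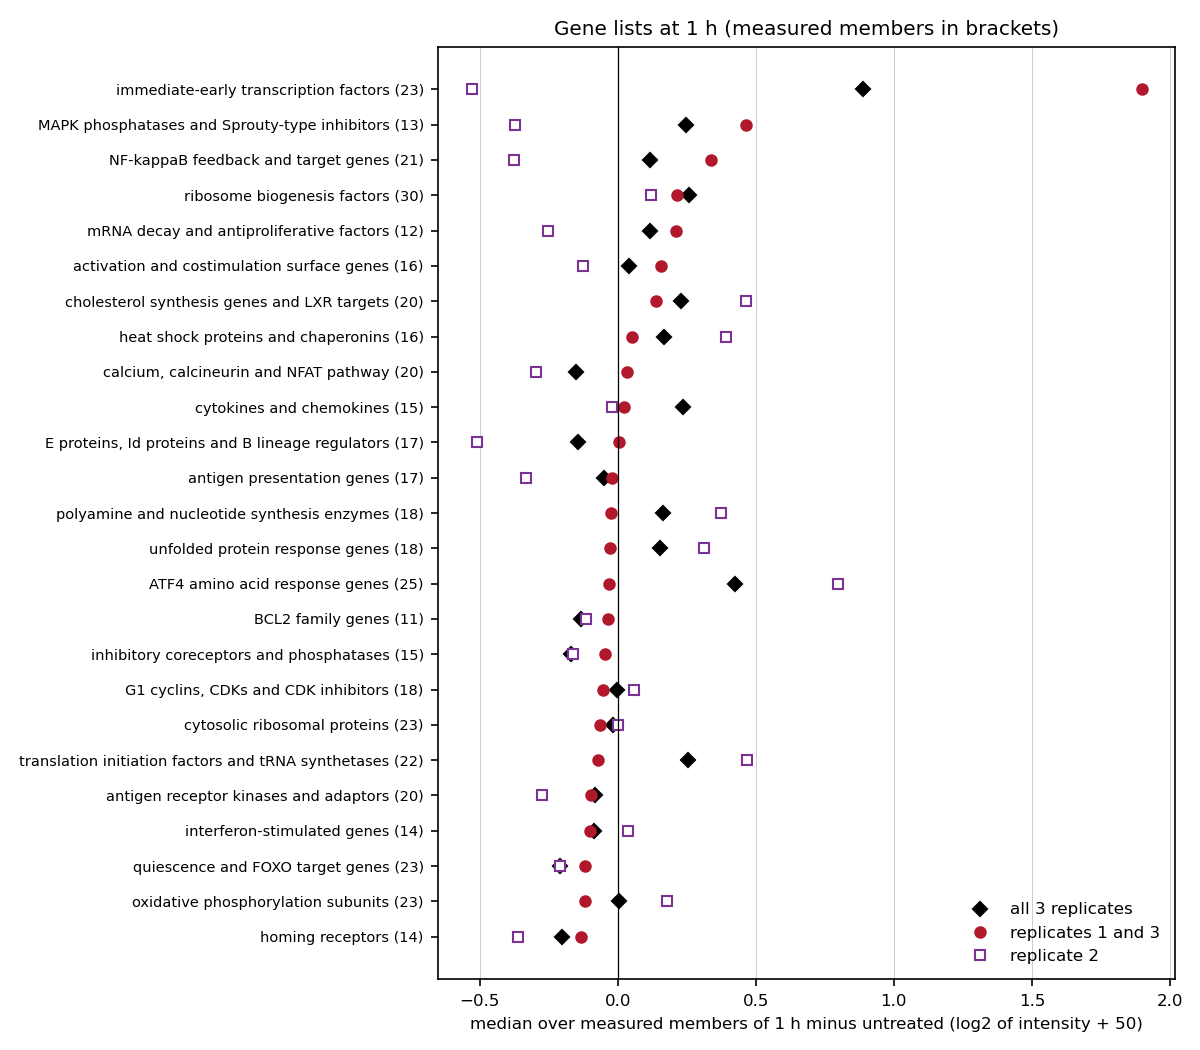
Median difference of 1 h minus untreated over the measured members of 25 gene lists on the log2(intensity + 50) scale, over all 3 replicates (black diamonds), replicates 1 and 3 (red circles) and replicate 2 (open squares). Immediate-early transcription factors lie at 0.89, 1.90 and -0.53, and ATF4 amino acid response genes at 0.43, -0.03 and 0.80.

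Quiescence genes mostly lay lower. Of 23 quiescence and FOXO target genes, 17 were lower, with medians of -0.21 over all replicates, -0.12 on replicates 1 and 3, and -0.21 on replicate 2, and 5 of 23 were at least 2-fold lower on replicates 1 and 3, against 0.239% of all features. Foxo1, the transcription factor of that programme, had 500, 124 and 459 at 1 h, against 630, 399 and 603 in untreated cells, and differed by -0.68 ± 0.42. Irs2, a FOXO target, was the member with the largest difference upward (0.88 ± 0.62). Of 14 homing receptors 8 were lower, with medians of -0.20 over all replicates, -0.13 on replicates 1 and 3, and -0.36 on replicate 2. Cxcr5, the receptor that brings B cells to follicles, had 803, 345 and 774 at 1 h, against 1177, 693 and 1036 in untreated cells. Ccr7 and Gpr183, receptors that guide activated B cells to the T cell border, had higher means at 1 h. Ccr7 had 181, 167 and 177 at 1 h, against 111, 143 and 153 in untreated cells, without overlap. Its difference was 0.28 ± 0.21 (unadjusted p = 0.218 by limma). Gpr183 had 4228, 2057 and 3999 at 1 h, against 1651, 3403 and 1801 in untreated cells. Its groups overlapped, and it differed by -0.71 on replicate 2. The interleukin 4 receptor gene Il4ra had 35.6, 10.3 and 35.2 at 1 h, against 82.3, 33.8 and 105 in untreated cells, and Cd40 differed by -0.58 ± 0.40. The activation marker Cd69 had 6375, 2562 and 6289 at 1 h, against 954, 3613 and 803 in untreated cells.

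Of 20 calcium pathway genes, 5 were higher over all replicates, with a median of -0.15, while 12 were higher on replicates 1 and 3, with a median of 0.03, and the median on replicate 2 was -0.29. On replicates 1 and 3 there were 2 at least 2-fold higher, against 1.22% of all features. Rcan1, a calcineurin inhibitor induced by NFAT, had 350, 338 and 567 at 1 h, against 117, 361 and 134 in untreated cells. The other, Orai1, the pore of the store-operated calcium channel, had 605, 954 and 659 against 171, 1112 and 211. Medians over all replicates were 0.26 for 30 ribosome biogenesis factors (27 higher) and 0.25 for 22 translation initiation factors and tRNA synthetases (19 higher). On replicates 1 and 3 these were 0.21 and -0.07. Cytosolic ribosomal proteins (23 measured), oxidative phosphorylation subunits (23) and interferon-stimulated genes (14) had medians of -0.02, 0.01 and -0.08 over all replicates, and of -0.06, -0.12 and -0.10 on replicates 1 and 3. Of the oxidative phosphorylation subunits, 12 were higher over all replicates and 5 on replicates 1 and 3, with a median of 0.18 on replicate 2. Reference genes were near level: Gapdh differed by -0.04 ± 0.11 and Actb by 0.19 ± 0.18, with 3 of the 5 Actb probes of the opposite sign. The B cell marker Ms4a1, which encodes CD20, had 281, 109 and 278 at 1 h, against 382, 208 and 354 in untreated cells, and was lowest on replicate 2 of both groups.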

How the data were processed

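RNA of 9 samples was measured on Illumina bead arrays. The authors deposited a table of normalized intensities, 1 value per probe and array. Neither the labels nor the file header says with which software. Of its values, 31.8% were below 0, so background had been subtracted. The 9 value columns of a deposited non-normalized table match no sample label and were not used here. Deposited intensities were taken as log2(intensity + 50). A probe was above noise where it exceeded the upper 0.05 tail of the values below 0 mirrored at 0 (median threshold 6.44), and probes above noise on at least 3 of 9 arrays were kept (20983). The platform's annotation gives 1 gene symbol to 34885 probes, several to 18 and none to 10378, and 34807 matched RefSeq (GRCm38.p6). Each gene was represented by the probe with the highest mean, which left 14640 features, 24.2% of them unnamed. Several kept probes were found for 4181 genes.

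Means per group were fitted over the 9 arrays (limma 3.58.1, R 4.3.3, lmFit with eBayes, 6 residual degrees of freedom, median residual SD 0.202). Tests were two-sided, with Benjamini-Hochberg adjustment over the 14640 features and a threshold of 0.05. The fit of replicates 1 and 3 used 6 arrays. Errors are moderated standard errors. "At least N-fold" sets the brighter mean against the lowest signal above noise. The members and lists were chosen with earlier results of these data known. Genes were named by a rule: the 12 genes higher and 12 lower with the widest gap between groups, the 10 higher and 10 lower with the largest difference on replicates 1 and 3, list members with the widest gaps or highest means, and a fixed set of B cell and early response genes. All other genes were named after their values were seen. Same-numbered arrays deviated together between 1 h and untreated (r across genes 0.572, 0.522 and 0.242 for replicates 1, 2 and 3), while those at 2 h deviated the opposite way from untreated (-0.712, -0.787 and -0.517) and from 1 h (-0.435, -0.481 and -0.342). In addition, the labels give no shared animal or batch, and the deviations of 3 arrays sum to 0. The numbers were also fitted as a block. The scripts were tested on simulated data. The number of arrays and their spread limit the precision.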

Additional observations from a re-analysis of the deposited data

How the results depend on the processing

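The count of 0 genes called stayed at 0 with offsets of 16 and 100, both other filters on dim probes, the mean of a gene's probes, quantile normalization, 6 arrays, a trended robust prior and a threshold of 0.10, and when each array was left out (0 to 0). With the replicate number as a block it was 0 on 9 arrays and 0 on the 6 arrays of the groups, the second chosen after seeing the data, and the block changed no call. It was 1 with array weights (Impact, 1.19, adjusted p = 0.0484 by limma), 1073 with replicates 1 and 3 only and 768 with the 4 arrays of those replicates, both sets known from earlier results. Features without overlap numbered 1068 higher and 1047 lower with no filter on dim probes, 191 and 187 when a probe had to be above noise on every array, and 3084 and 3746 with replicates 1 and 3 only, where fewer arrays have to separate. Leaving out 1 array gave 646 to 1994 higher and 587 to 2551 lower, most without untreated replicate 2. Of 120 genes followed under each alternative, signs turned for Actb with the mean of its probes (-0.087) and, on replicates 1 and 3 only, for Asns (-0.0082), Trib3 (-0.37), Mthfd2 (-0.16) and Jund (0.30). Leaving out 1 array turned the sign of 8 of these 120, whose differences ranged from -0.20 to 1.46 for Asns, -0.41 to 1.14 for Trib3, -0.39 to 1.12 for Mthfd2, -0.0063 to 0.53 for Nfkbia, -0.075 to 0.46 for Tnfaip3, -0.046 to 0.12 for Btg1, -0.20 to 0.23 for Jund and -0.13 to 0.056 for Gapdh. The cause was not tested.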
